A study of Mus musculus with 30 samples.

Results

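The genes described here are 10 classical transcriptional targets of Wnt/β-catenin signalling: Axin2, Notum, Sp5, Lef1, Tcf7, Nkd1, Lgr5, Dkk1, Rnf43 and T. They were taken by name, as 10 of the 35275 entries of a bulk RNA-Seq table from mouse chemical reprogramming, and followed through all 14 libraries of that table. When a Wnt ligand is absent, a destruction complex built on Axin, APC and the kinase GSK3 marks β-catenin for degradation. When a ligand engages a Frizzled receptor and an LRP co-receptor, or when GSK3 is inhibited by a compound such as CHIR99021, β-catenin persists, enters the nucleus and works with DNA-binding proteins of the TCF/LEF family. Many of the genes switched on in this way limit the pathway in turn, and Axin2 is the most widely used readout among them.

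Chemical reprogramming turns fibroblasts into pluripotent cells with small molecules, by way of an intermediate that resembles extraembryonic endoderm (XEN). Each of the 14 groups held 1 library. MEFs are mouse embryonic fibroblasts of E13.5 embryos of the strain C57BL/6J-Tg(GOFGFP)11Imeg/RbrcxICR, which carries a GOFGFP transgene, and that background was shared by every other group except the ESCs and the reporter pair. XEN-like cells were a purified line kept in stage I medium with 20 ng/ml bFGF, a medium that contained CHIR99021 per the labels' protocols. Reprogramming cultures were re-plated on day 12 with less bFGF and CHIR99021, changed to stage II medium on day 16 and to stage III medium on day 28. Stage II day 12 was sampled under the N2B27-SII condition, with cells plated on mitomycin C-treated MEF feeders, and under the FBS/KSR-SII condition, for which no feeders are stated. A sorted fraction, OG+PDGFRAlow/-PECAM-, came from the same stage and day. The reporter pair, pZscan4c-Em+ and pZscan4c-Em-, was sorted on stage II day 12 from XEN-like cells that had been derived from pZscan4-Emerald ESCs (129S6/SvEvTac x C57BL/6Ncr) rather than from fibroblasts. Stage III was sampled on day 4 with (Opt. VPA) and without (Control) VPA treatment, and on days 6, 15 and 21. CiPSCs were a single chemically induced line, and ESCs came from an E3.5 embryo of ICR x ICR parents; both are maintained on MEF feeders with CHIR99021 at 3 µM, the MEK inhibitor PD0325901 at 1 µM and LIF at 10 ng/ml. The labels name neither the components of the stage II and stage III media nor the stage II medium behind the sorted fraction, the reporter pair and the stage III libraries.

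Values are FPKM, fragments per kilobase of transcript, scaled to a fixed number of mapped fragments. Whole reads could be recovered from them, and library totals ran from 6601290 reads (Control) to 15294927 (FBS/KSR-SII). With 1 library per group no test was possible: the 95% intervals below are exact Poisson or binomial intervals of the reads and cover counting error only. A gene that reached 1 FPKM in at least 1 of the 2 libraries compared (a measured gene) was counted as higher or lower when it differed by 2-fold or more on the log2(FPKM + 1) scale, and medians are on that scale too. A fold printed for a gene is the plain ratio of its FPKM values, so a gene of low level could exceed 2-fold in that ratio without being counted. Labels and markers were compared once. The 8 extraembryonic endoderm markers summed to 2454 FPKM in XEN-like cells, with all 8 at 1 FPKM or more. The 9 fibroblast markers summed to 19306 FPKM in MEFs and the 8 pluripotent cell markers to 2555 and 2681 in CiPSCs and ESCs. Zscan4c stood at 1172 FPKM in pZscan4c-Em+ and 32.5 in pZscan4c-Em-. Reads of mitochondrially encoded genes made up 14.1% of pZscan4c-Em- and 7.37% of pZscan4c-Em+, against 1.25% to 4.67% of the other libraries.

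TCF/LEF proteins bind a short site whose core was searched here as CTTTGNN, where each N was A or T, on both strands, in the RefSeq windows from 250 bases before to 50 bases after each start site (GRCm38.p6). Of the 10 genes, 8 had 13 windows between them, and Notum and Lgr5 had none. A match was found in 4 of those 8 genes, Sp5, Lef1, Dkk1 and T, while 18.9% of all 27025 genes and 16.9% of all 32851 windows held one. The members had more windows per gene than genes in general, which gives more chances of a match, so the shares of genes are not like for like. Sp5 and Dkk1 each held 2 matches in 1 window, as did 1.94% of windows when 2 or more were counted. The stretches around the matches are shown because they let the members be compared at the level of the site itself; capitals mark the matches, written as they read on the gene's strand, 5′ to 3′.
Sp5: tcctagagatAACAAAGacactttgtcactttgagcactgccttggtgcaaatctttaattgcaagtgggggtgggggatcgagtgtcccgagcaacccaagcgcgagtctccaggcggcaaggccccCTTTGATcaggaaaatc
Lef1: aacctcagaaTACAAAGtaggattgca
Dkk1: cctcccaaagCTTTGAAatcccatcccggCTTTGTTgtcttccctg
T: tgctcggtacTTCAAAGggtgtcccgc

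The Sp5 stretch is chr2:70474691-70474835 on the plus strand, with matches starting at positions -222 and -104 from the start site, the first of them on the opposite strand. The Dkk1 stretch is chr19:30549578-30549623 on the minus strand, with both matches on the gene's own strand at -117 and -98. The T stretch, chr17:8434178-8434204, and the Lef1 stretch, chr3:131156137-131156163, are both on the plus strand and hold 1 opposite-strand match each, at -235 and -147. The Lef1 match lay in the last of that gene's 4 windows, so it belongs to an internal start site. The windows of Axin2, Tcf7, Nkd1 and Rnf43 held no such letters. For Axin2, Tcf7 and Nkd1 these windows belong to start sites inside the annotated gene, and the outermost start of those genes was not searched. A match is a description of the sequence and shows no binding.

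The 5 libraries with the highest Axin2 were also those in which 7 or more members were detected. At 1 FPKM or more, 9 of the 10 genes were found in N2B27-SII and in pZscan4c-Em-, 7 in XEN-like cells, pZscan4c-Em+ and Opt. VPA, 6 in FBS/KSR-SII and Control, and 5 in each of the remaining 7 libraries. Those 7 were MEFs, the sorted OG+ fraction, stage III days 6, 15 and 21, CiPSCs and ESCs, and the 5 genes were not the same in each. Axin2 and Tcf7 passed 1 FPKM in all 14 libraries. T passed it in ESCs alone, and Lgr5 in 3 libraries.

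**Figure D1:**
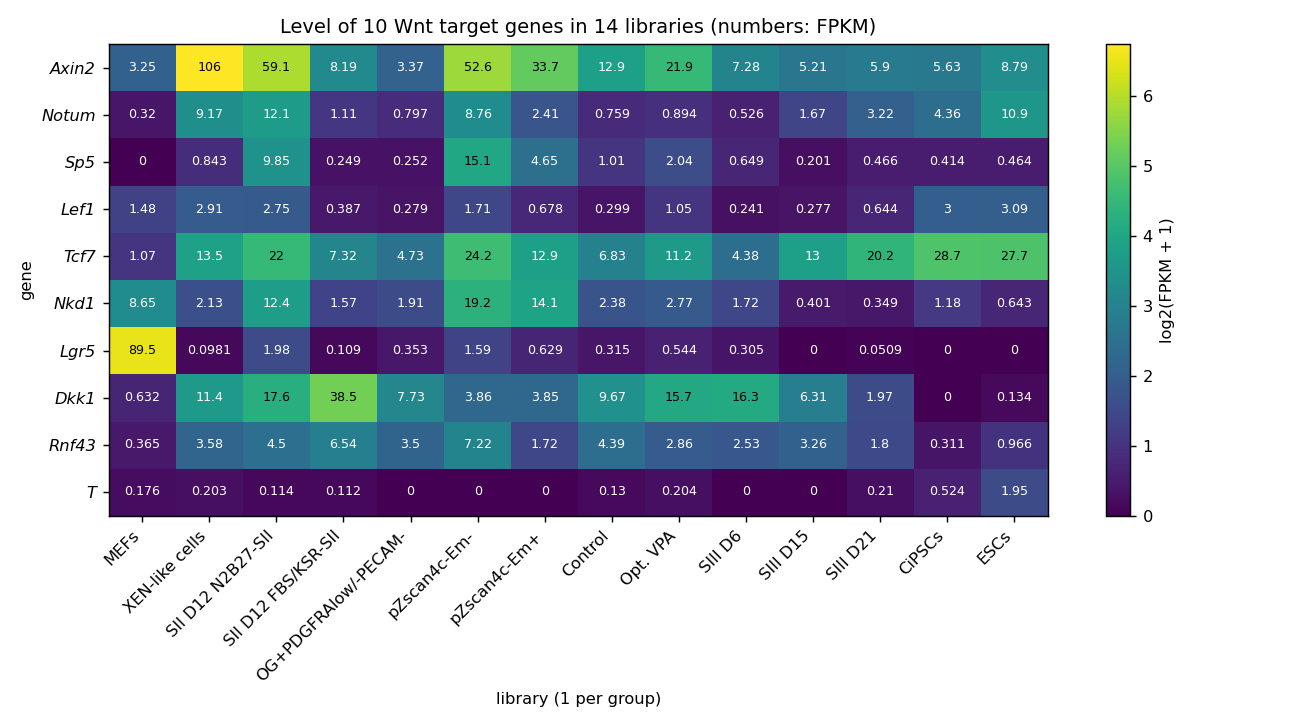
Level of the 10 genes (rows) in the 14 libraries (columns, 1 library per group). Colour is log2(FPKM + 1) and the number in each cell is FPKM; Axin2 peaks at 106 in XEN-like cells, Lgr5 at 89.5 in MEFs and Dkk1 at 38.5 in FBS/KSR-SII.

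Axin2 encodes a scaffold of the β-catenin destruction complex and so a feedback inhibitor made inside the responding cell. Its level was 106 FPKM in XEN-like cells (1522 reads, interval 100.4 to 111.1), 59.1 in N2B27-SII, 52.6 in pZscan4c-Em- and 33.7 in pZscan4c-Em+. On stage III day 4 it was 21.9 with Opt. VPA and 12.9 in Control. The other 8 libraries lay lower: 8.79 in ESCs, 8.19 in FBS/KSR-SII, 7.28 on stage III day 6, 5.90 on day 21, 5.63 in CiPSCs, 5.21 on day 15, 3.37 in the OG+ fraction and 3.25 in MEFs (54 reads, interval 2.44 to 4.24). Each of the upper 6 libraries differed from the next in the order beyond counting error, whereas neighbours from ESCs down to day 15 did not, nor did the OG+ fraction and MEFs. Axin2 was thus 32.5-fold (24.8 to 43.5) higher in XEN-like cells than in the fibroblasts. XEN-like cells, ESCs and CiPSCs were all kept with CHIR99021. Its concentration was 3 µM for ESCs and CiPSCs, and none was recorded here for XEN-like cells. The part of CHIR99021 in these levels was not tested.

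Nkd1 encodes a cytoplasmic inhibitor that binds Dishevelled, the protein that relays the signal from Frizzled. Its highest levels were 19.2 FPKM in pZscan4c-Em-, 14.1 in pZscan4c-Em+ and 12.4 in N2B27-SII, followed by 8.65 in MEFs. The remaining 10 libraries ran from 2.77 in Opt. VPA, 2.38 in Control, 2.13 in XEN-like cells, 1.91 in the OG+ fraction, 1.72 on stage III day 6 and 1.57 in FBS/KSR-SII to 1.18 in CiPSCs, 0.643 in ESCs, 0.401 on day 15 and 0.349 on day 21. Unlike Axin2, Nkd1 was thus low in XEN-like cells and in the upper 4 in MEFs.

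Sp5 encodes a zinc-finger transcription factor of the Sp family that is induced directly by β-catenin and dampens other Wnt target genes. It was at 15.1 FPKM in pZscan4c-Em-, 9.85 in N2B27-SII, 4.65 in pZscan4c-Em+, 2.04 with Opt. VPA and 1.01 in Control. All other libraries were under 1 FPKM: 0.843 in XEN-like cells (15 reads), 0.649 on stage III day 6, 0.466 on day 21, 0.464 in ESCs, 0.414 in CiPSCs, 0.252 in the OG+ fraction, 0.249 in FBS/KSR-SII and 0.201 on day 15, with 0 reads in MEFs, which allows up to 0.146 FPKM. Each of the upper 5 libraries differed from its lower neighbour beyond counting error, except Control from XEN-like cells. Sp5 was thus high in the stage II libraries in which Axin2 was high, but not in the XEN-like line, in which Axin2 was highest.

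**Figure D2:**
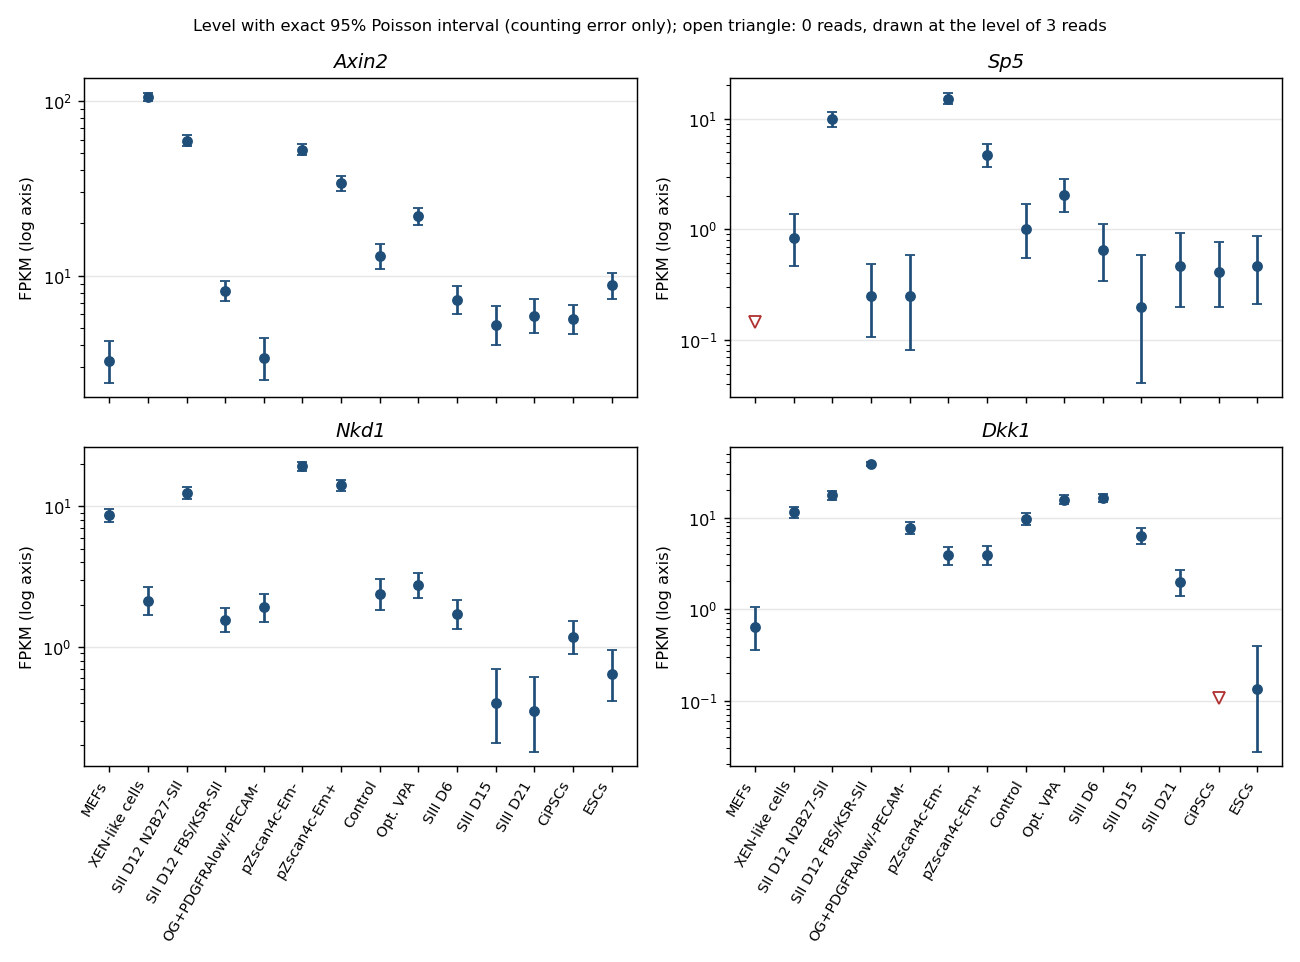
FPKM (log axes) of Axin2, Sp5, Nkd1 and Dkk1 in the 14 libraries, each point 1 library with its exact 95% Poisson interval; open triangles mark 0 reads and are drawn at the level of 3 reads. N2B27-SII and the reporter pair are high for Axin2, Sp5 and Nkd1, whereas Dkk1 is highest in FBS/KSR-SII at 38.5 FPKM.

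Notum and Dkk1 encode secreted inhibitors that act outside the cell. Notum is an enzyme that removes the lipid from Wnt ligands, and Dkk1 blocks the LRP co-receptors. Notum was at 12.1 FPKM in N2B27-SII, 10.9 in ESCs, 9.17 in XEN-like cells and 8.76 in pZscan4c-Em-, and these 4 neighbours in the order did not differ beyond counting error. It was at 4.36 in CiPSCs, 3.22 on stage III day 21, 2.41 in pZscan4c-Em+, 1.67 on day 15 and 1.11 in FBS/KSR-SII. Levels under 1 FPKM were seen with Opt. VPA (0.894), in the OG+ fraction (0.797), in Control (0.759), on day 6 (0.526) and in MEFs (0.320, 5 reads).

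Dkk1 took another order. Its level was 38.5 FPKM in FBS/KSR-SII (1429 reads), 17.6 in N2B27-SII, 16.3 on stage III day 6, 15.7 with Opt. VPA, 11.4 in XEN-like cells and 9.67 in Control. It was at 7.73 in the OG+ fraction, 6.31 on day 15, 3.86 in pZscan4c-Em-, 3.85 in pZscan4c-Em+ and 1.97 on day 21. MEFs had 0.632 FPKM, ESCs 0.134 (3 reads) and CiPSCs 0 reads, where 3 reads would be 0.108 FPKM. FBS/KSR-SII and both pluripotent lines thus sat at opposite ends, and the library with the most Dkk1 had Sp5 at 0.249 FPKM and Lef1 at 0.387.

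Rnf43 and Lgr5 belong to the R-spondin module: Rnf43 is a ubiquitin ligase that removes Frizzled receptors from the cell surface, and Lgr5 is a receptor for the R-spondins, which hold that ligase in check. Rnf43 was at 7.22 FPKM in pZscan4c-Em-, 6.54 in FBS/KSR-SII, 4.499 in N2B27-SII, 4.39 in Control, 3.58 in XEN-like cells, 3.501 in the OG+ fraction, 3.26 on stage III day 15, 2.86 with Opt. VPA, 2.53 on day 6, 1.80 on day 21 and 1.72 in pZscan4c-Em+. It was under 1 FPKM in ESCs (0.966), MEFs (0.365) and CiPSCs (0.311). Of its 13 neighbouring pairs in this order, 2 differed beyond counting error.

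Lgr5 was found almost entirely in the fibroblast library. MEFs had 89.5 FPKM (2106 of the 2224 Lgr5 reads in the table). N2B27-SII had 1.98 (36 reads), pZscan4c-Em- 1.59 and pZscan4c-Em+ 0.629, and the remaining libraries lay at 0.544 or lower, with 0 reads in CiPSCs, ESCs and on stage III day 15. N2B27-SII was plated on MEF feeders. The 9 fibroblast markers summed to 108 FPKM there, against 19306 in MEFs and 248 in FBS/KSR-SII, where Lgr5 was 0.109 (4 reads). Of the 9, 5 were lower in N2B27-SII than in FBS/KSR-SII, among them Col1a1, a fibroblast collagen gene (16.1 and 115 FPKM). Another 3 were higher: Twist1 (37.8 and 4.13), Thy1 (25.6 and 6.14) and Prrx1 (7.74 and 2.41). The part of feeder or residual fibroblast RNA in the Lgr5 level was not tested. In bulk libraries, fewer cells of a type and less RNA per cell cannot be told apart.

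Tcf7 and Lef1 encode DNA-binding partners of β-catenin and are themselves induced by it. Tcf7 was at 28.7 FPKM in CiPSCs, 27.7 in ESCs, 24.2 in pZscan4c-Em-, 22.0 in N2B27-SII and 20.2 on stage III day 21. It was at 13.49 in XEN-like cells, 13.01 on day 15, 12.9 in pZscan4c-Em+, 11.2 with Opt. VPA, 7.32 in FBS/KSR-SII, 6.83 in Control, 4.73 in the OG+ fraction, 4.38 on day 6 and 1.07 in MEFs. The pluripotent lines were thus at the top for Tcf7 and among the 8 lower libraries for Axin2.

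Lef1 was a rare transcript throughout. It was near 3 FPKM in ESCs (3.09), CiPSCs (3.00), XEN-like cells (2.91) and N2B27-SII (2.75), and neighbours among these 4 did not differ beyond counting error. It was at 1.71 in pZscan4c-Em-, 1.48 in MEFs, 1.05 with Opt. VPA, 0.678 in pZscan4c-Em+ and 0.644 on stage III day 21. It lay under 0.4 in FBS/KSR-SII (0.387), Control (0.299), the OG+ fraction (0.279), day 15 (0.277) and day 6 (0.241).

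The family has 2 more members, Tcf7l1 and Tcf7l2, of which Tcf7l1 acts mainly as a repressor in mouse ESCs; Tcf7l1 was added to complete the family after its values were seen. Tcf7l2 was highest in XEN-like cells at 73.3 FPKM and lowest in CiPSCs at 3.13, followed by pZscan4c-Em+ at 4.77 and ESCs at 5.78. Tcf7l1 ran from 5.50 in pZscan4c-Em+ to 90.5 in CiPSCs. In the reporter pair alone, Tcf7 was the most abundant of the 4 genes. β-catenin itself (Ctnnb1), the most abundant gene of its list, stayed between 326.6 and 544.3 FPKM across all 14 libraries. Its highest level was 1.67 times its lowest, a smaller ratio than that of any member.

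**Figure D3:**
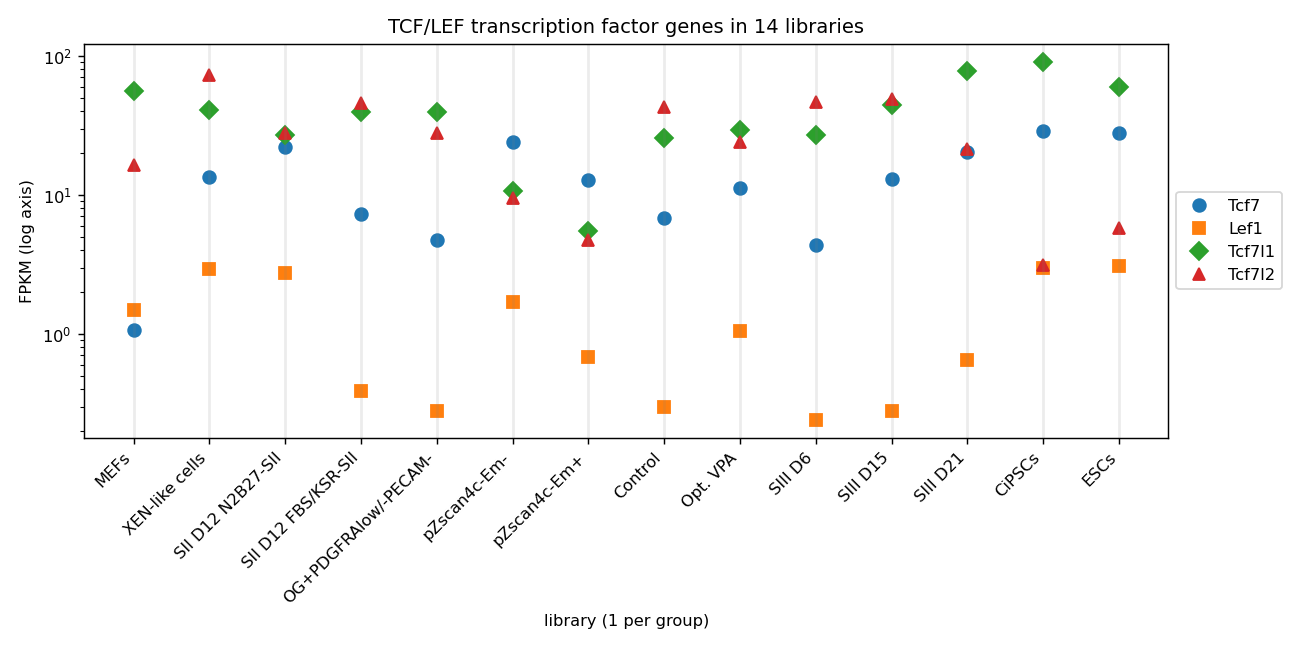
FPKM (log axis) of the TCF/LEF genes Tcf7, Lef1, Tcf7l1 and Tcf7l2 in the 14 libraries, 1 point per gene and library. Tcf7l2 is at 73.3 in XEN-like cells and 3.13 in CiPSCs, and Tcf7 is the highest of the 4 only in the reporter pair.

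T (brachyury), a transcription factor of the primitive streak and early mesoderm, was near the floor. ESCs had 1.95 FPKM (21 reads, interval 1.21 to 2.99) and CiPSCs 0.524 (7 reads, 0.211 to 1.08). The other 12 libraries held 2 reads or fewer, and the OG+ fraction, both reporter fractions and stage III days 6 and 15 held 0, so that 40 reads in all were counted. Of the 14 other primitive streak genes, at most 6 reached 1 FPKM in any library. Mixl1, a homeobox gene of the streak that was looked at after its values were seen, did not exceed 0.330 FPKM. Eomes, a T-box gene of the streak and of trophoblast and the most abundant on that list, stood at 90.5 FPKM in the OG+ fraction.

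The comparisons below share libraries with each other, so their values are not independent, and each is given on its own. The first set XEN-like cells against the fibroblasts of the starting population. Of the 8 members at 1 FPKM or more, 5 were higher and 2 lower, against 18.8% of all 13360 genes higher and 17.5% lower. The median log2 fold was 2.28 over those 8 and 1.31 over all 10 members, beside 0.21 over all genes. Notum was 28.6-fold (11.9 to 89.6) higher, Dkk1 18.1-fold (10.7 to 32.8), Tcf7 12.6-fold (8.15 to 20.5) and Rnf43 9.80-fold (4.70 to 23.6). Lgr5 was 913-fold lower (252 to 7544, on 2 reads in XEN-like cells) and Nkd1 4.06-fold lower (3.16 to 5.27). Lef1 was 1.97-fold (1.34 to 2.92) higher and not counted. Sp5 was under 1 FPKM in both, and 5.77-fold higher with its 0 reads in MEFs set at 3. All 9 fibroblast markers were lower in XEN-like cells and all 8 extraembryonic endoderm markers higher, and their part was not tested. After scaling by median-of-ratios size factors the all-gene median moved by -0.24 and the split of called genes went from 2518 higher and 2341 lower to 1841 and 2829, with the same counts of members.

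The genes around them differed too. Wnt11, a ligand, was at 41.2 FPKM in XEN-like cells and 2.86 in MEFs, while Wnt5a, a ligand known mainly for β-catenin-independent signalling, was at 7.98 and 53.4. Porcn, the enzyme that adds the lipid to Wnt ligands, was 6.49-fold (5.46 to 7.75) higher, and Wls, which carries the ligands to the cell surface, 6.39-fold (5.76 to 7.10) lower. Of the 11 measured secreted inhibitors other than the members, 4 were higher and 6 lower: Sfrp2 went from 475 FPKM in MEFs to 9.60, and Frzb, another secreted Frizzled-like protein, from 1.85 to 45.2. Of 13 measured receptor genes 1 was higher and 5 were lower, led by Fzd2 at 76.8 and 3.38 FPKM. None of the 12 measured destruction complex genes was higher and 1 was lower. The list of other Wnt targets was split, with 6 of its 20 measured genes higher and 8 lower (median log2 fold -0.36). Mycn was 16.8-fold (11.4 to 25.5) higher and Wisp1 444-fold (234 to 972) lower. This wider list thus did not share the upward median of the members.

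From XEN-like cells to stage II day 12, different members were counted in each medium. Under N2B27-SII, 3 of 9 measured members were higher and 0 lower, against 17.7% and 8.56% of all genes, with a median of 0.58 beside 0.05 over all genes. The higher members were Sp5 (11.7-fold, 6.87 to 21.4), Nkd1 (5.83-fold, 4.55 to 7.55) and Lgr5 (20.2-fold, 5.21 to 173, on 2 reads in XEN-like cells). Axin2 was 1.79-fold (1.64 to 1.95) lower, and the remaining 5 differed by at most 1.63-fold. Under FBS/KSR-SII, 1 of 7 was higher and 3 were lower, against 16.1% and 10.3% of all genes, with a median of -0.80 beside -0.02. Axin2 was 12.9-fold (11.2 to 15.0) lower, Notum 8.29-fold (5.43 to 13.1) lower and Lef1 7.52-fold (4.45 to 13.4) lower, whereas Dkk1 was 3.37-fold (2.93 to 3.88) higher. Cell type markers differed as well, and their part was not tested. Under N2B27-SII all 8 extraembryonic endoderm markers were lower (summed 719 FPKM against 2454), all 9 2-cell-like markers (genes such as Zscan4c that are active in the 2-cell embryo) were higher (276 against 0), and 6 of 7 measured pluripotent and 5 of 7 trophoblast markers were higher. Under FBS/KSR-SII all 8 pluripotent and all 7 trophoblast markers were higher, as were 8 of 8 measured 2-cell-like markers, while 1 extraembryonic endoderm marker was higher and 3 were lower.

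The direct comparison of the media asked how the 2 stage II conditions differ on the same day. N2B27-SII had 7 of 9 measured members higher than FBS/KSR-SII and 1 lower, against 10.7% and 7.3% of all 14047 genes. The median log2 fold was 1.47 over the measured members and 1.45 over all 10, beside 0.07 over all genes. Sp5 was 39.6-fold (19.6 to 93.3) higher, Lgr5 18.3-fold (6.54 to 70.6), Notum 10.9-fold (7.19 to 17.1), Nkd1 7.91-fold (6.35 to 9.95), Axin2 7.22-fold (6.19 to 8.45), Lef1 7.10-fold (4.15 to 12.7) and Tcf7 3.01-fold (2.54 to 3.56). Dkk1 was 2.19-fold (1.94 to 2.48) lower, and Rnf43 was 1.45-fold (1.12 to 1.91) lower without being counted. Dkk1 and Rnf43 encode inhibitors of the pathway, but so do Axin2, Nkd1 and Notum, which were higher. Other genes of the lists to which Dkk1 and Rnf43 belong were not all lower. Of 7 measured secreted inhibitors other than the members, 2 were higher and 1 lower. Of 5 measured genes of the R-spondin module, 0 were called.

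Other reported Wnt targets went both ways between the media, with 8 of 19 measured higher and 3 lower (median log2 fold 0.90). Cdx2 stood at 43.2 and 3.38 FPKM, Sox9 at 21.9 and 1.41 and Cdx1 at 9.85 and 0.785, whereas Ascl2, a target in intestinal stem cells and a trophoblast factor, stood at 1.07 and 13.53. No gene of the destruction complex (12 measured) or of the β-catenin and TCF/LEF list (12 measured) was called in either direction. Among the ligands, 3 of 7 measured were higher and 0 lower, with Wnt6 at 6.83 and 2.23 FPKM and Wnt11 at 15.4 and 6.10. Cell type markers differed between the 2 conditions too. MEF feeders are stated for N2B27-SII and not for FBS/KSR-SII, so medium and feeders cannot be told apart. The extraembryonic endoderm markers summed to 719 FPKM in N2B27-SII and 1747 in FBS/KSR-SII, with 0 of 8 higher and 3 lower. The trophoblast markers summed to 96.8 and 225, with 5 of 7 lower but Cdx2 higher, and the fibroblast markers to 108 and 248, with 5 of 9 lower but Twist1 (37.8 and 4.13 FPKM), Thy1 and Prrx1 higher. The 2-cell-like markers summed to 276 and 115 (5 of 9 higher) and the endothelial markers to 11.4 and 52.4 (3 of 4 lower). The pluripotent cell markers summed to 325 and 416 FPKM, with 1 of 8 higher and 3 lower. Their part in the difference of the targets was not tested.

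**Figure D4:**
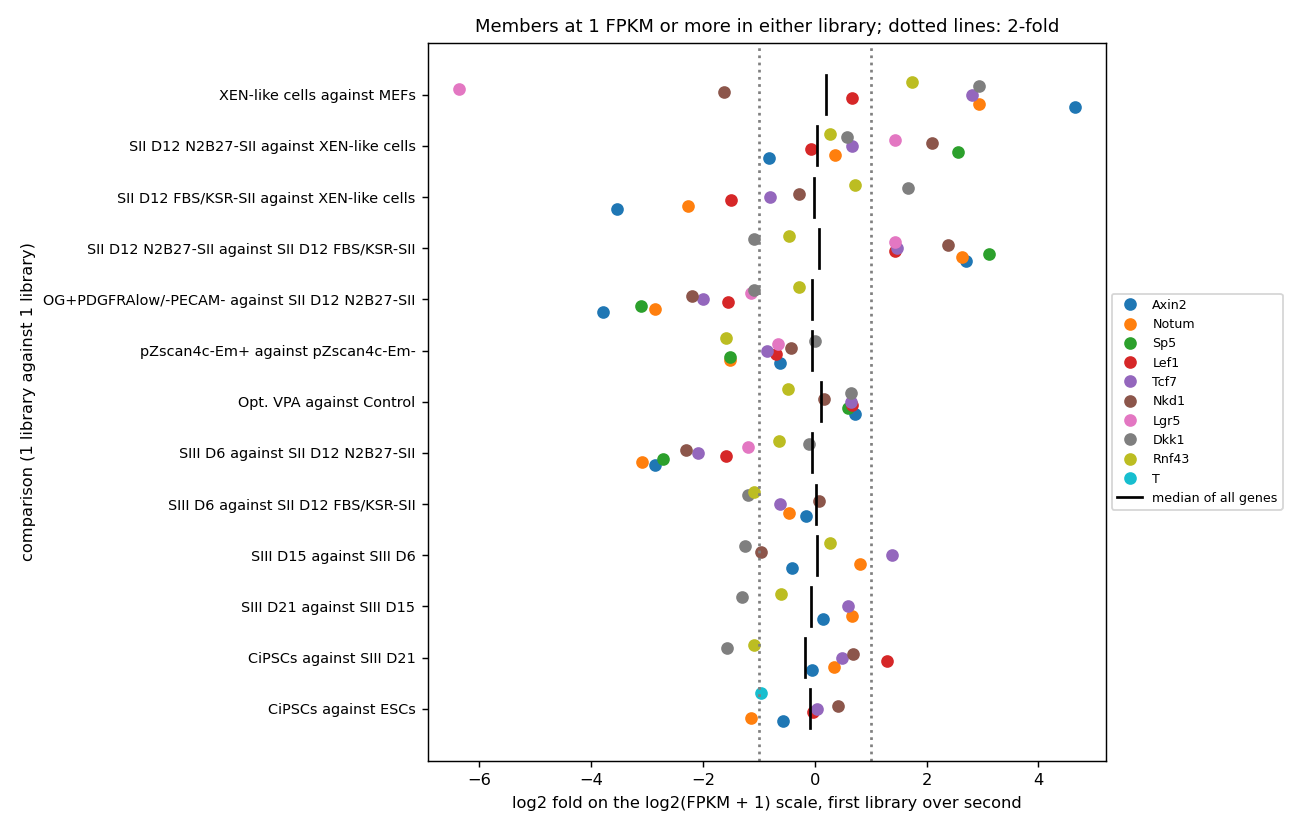
Log2 fold, on the log2(FPKM + 1) scale, of each member at 1 FPKM or more in either library (coloured points) in the 13 comparisons of 1 library against 1 library, with the median over all genes as a black bar and 2-fold as dotted lines. Of the 9 members plotted for N2B27-SII against FBS/KSR-SII, 7 lie right of the upper line, and 8 of 9 lie left of the lower line for the OG+ fraction against N2B27-SII.

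The sorted OG+PDGFRAlow/-PECAM- fraction was set against N2B27-SII, both from stage II day 12, although the medium behind the sort is not given. Of 9 measured members, 0 were higher and 8 lower, against 12.0% of all 14348 genes in each direction, with a median of -2.01 beside -0.06. Sp5 was 39.0-fold (16.4 to 122) lower, Axin2 17.6-fold (13.3 to 23.6), Notum 15.1-fold (8.39 to 29.9), Lef1 9.85-fold (4.71 to 23.8), Nkd1 6.49-fold (5.06 to 8.40), Lgr5 5.63-fold (2.57 to 14.02), Tcf7 4.66-fold (3.70 to 5.91) and Dkk1 2.28-fold (1.89 to 2.75). Rnf43 alone stayed within 1.28-fold (0.920 to 1.79). Beside FBS/KSR-SII, Axin2 stood at 3.37 FPKM in the sorted fraction and 8.19 there, Sp5 at 0.252 and 0.249, Nkd1 at 1.91 and 1.57, Dkk1 at 7.73 and 38.5 and Rnf43 at 3.501 and 6.54.

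Several pathway genes that are not members were higher in that fraction. The ligand Wnt7b stood at 29.0 FPKM against 3.72 in N2B27-SII and Wnt6 at 21.5 against 6.83, so that 4 of 9 measured ligands were higher and 3 lower. Gsk3b, the kinase of the destruction complex, was 3.43-fold (3.18 to 3.70) higher, and Lgr4, the most abundant gene of the R-spondin module, 3.31-fold (3.00 to 3.65) lower. Of the other Wnt targets 6 of 19 measured were higher and 8 lower: Id2 stood at 128 and 11.3 FPKM and Nr5a2 at 12.7 and 0.760, against Sox9 at 0.436 and 21.9 and Ccnd1, the cyclin D1 gene, at 1.81 and 39.4. The 7 trophoblast markers summed to 886 FPKM in the sorted fraction and 96.8 in N2B27-SII, all 7 at 1 FPKM or more in both, and the fibroblast markers to 35.8 (6 of 9 at 1 FPKM or more) and 108 (9 of 9). The 2-cell-like markers summed to 760 and 276, with 5 of 9 higher. The part of cell type in these differences was not tested.

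The reporter pair asked what distinguishes cells with an active Zscan4c promoter, a mark of the 2-cell-like state. In pZscan4c-Em+, 0 of 9 measured members were higher and 3 lower than in pZscan4c-Em-, against 8.37% and 5.15% of all 13413 genes, with a median of -0.69 beside -0.04. Rnf43 was 4.20-fold (2.78 to 6.55) lower, Notum 3.63-fold (2.39 to 5.69) lower and Sp5 3.25-fold (2.50 to 4.29) lower. Lef1 (2.52-fold, 1.38 to 4.87), Lgr5 (2.52-fold, 1.24 to 5.53), Tcf7 (1.88-fold, 1.59 to 2.24), Axin2 (1.56-fold, 1.38 to 1.76) and Nkd1 (1.36-fold, 1.21 to 1.54) were also lower beyond counting error without being counted, and Dkk1 stood at 3.85 and 3.86 FPKM.

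The share of mitochondrial reads differed between the fractions, as given above, and with totals that leave those reads out the count stayed at 3 lower and the median was -0.79. Among the other Wnt targets 1 of 22 measured was higher and 6 were lower, led by Fst, Ccnd1 and Myc. Tle3, a co-repressor that binds TCF/LEF proteins, stood at 20.3 FPKM against 61.9. Of the 13 measured receptor genes only Fzd4 was called, at 3.81 FPKM against 0.627. The trophoblast markers summed to 35.9 FPKM in pZscan4c-Em+ and 105 in pZscan4c-Em- (6 of 7 at 1 FPKM or more in each), and the extraembryonic endoderm markers to 302 and 543 (8 of 8 in each). Of the 6 measured trophoblast markers 2 were lower and 0 higher, with Krt7 at 9.90 and 55.5 FPKM. Of the 8 extraembryonic endoderm markers 2 were lower and 0 higher. Their part in the difference was not tested.

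VPA is the usual short name of valproic acid, an inhibitor of histone deacetylases. On stage III day 4, 0 of 7 measured members were called in either direction between Opt. VPA and Control, where 5.77% of all 13571 genes were higher and 3.28% lower. The median was 0.64 beside 0.12 over all genes. Lef1 stood at 1.05 against 0.299 FPKM (3.53-fold, 1.43 to 10.5), Sp5 was 2.02-fold (1.06 to 4.05) higher, Axin2 1.69-fold (1.39 to 2.08), Tcf7 1.64-fold (1.28 to 2.12) and Dkk1 1.63-fold (1.34 to 1.98). Rnf43 was 1.53-fold (1.05 to 2.24) lower. The all-gene median moved by -0.11 with size factors, which left the members' median at 0.53 and the count at 0. Cdx1, a homeobox target of Wnt, was the only other target counted among 20 measured, at 3.26 against 0.519 FPKM. Of the markers, 7 of 8 measured 2-cell-like genes (summed 112 FPKM against 14.8) and 3 of 7 trophoblast genes were higher with Opt. VPA, and their part was not tested.

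Stage III day 6 was compared with both stage II libraries because the medium behind it is not given. Against N2B27-SII, 0 of 9 measured members were higher and 7 lower, where 9.99% and 8.98% of all genes were called, with a median of -2.10. Notum was 22.9-fold (11.3 to 54.1) lower, Sp5 15.2-fold (8.62 to 29.1), Lef1 11.4-fold (5.21 to 29.5), Axin2 8.12-fold (6.68 to 9.95), Nkd1 7.22-fold (5.58 to 9.47), Lgr5 6.50-fold (2.85 to 17.3) and Tcf7 5.03-fold (3.97 to 6.43). Against FBS/KSR-SII, 0 of 6 were higher and 2 lower, where 6.05% and 2.01% of all genes were called, with a median of -0.55. Those were Rnf43 (2.59-fold, 1.91 to 3.55) and Dkk1 (2.36-fold, 2.10 to 2.65), while Tcf7 was 1.67-fold (1.30 to 2.16) lower without being counted and Axin2 differed by 1.13-fold (0.894 to 1.42). The trophoblast markers summed to 550 FPKM on day 6 against 96.8 and 225 in the stage II libraries, with 6 of 7 higher against N2B27-SII and 5 of 7 against FBS/KSR-SII. The fibroblast markers summed to 694 against 108 and 248: against N2B27-SII 6 of 9 were higher and Twist1 and Thy1 lower, and against FBS/KSR-SII 6 of 9 were higher. The 2-cell-like markers summed to 99.9 against 276 and 115, with 7 of 9 lower against N2B27-SII and 0 of 8 measured called against FBS/KSR-SII. Their part was not tested. Wnt7b was higher on day 6 against either base, at 14.7 FPKM against 3.72 and 3.06.

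Later in stage III, 1 or 2 members were counted between neighbouring time points. From day 6 to day 15, 1 of 6 measured was higher and 1 lower, where 6.23% and 5.02% of all genes were called: Tcf7 was 2.97-fold (2.30 to 3.86) higher and Dkk1 2.59-fold (2.09 to 3.23) lower. Nkd1 was 4.29-fold (2.31 to 8.70) lower, Notum 3.18-fold (1.33 to 8.40) higher and Axin2 1.40-fold (1.02 to 1.93) lower, beyond counting error but not counted. From day 15 to day 21, 0 of 5 were higher and 1 lower, where 1.72% and 7.5% were called, and Dkk1 was again the lower one, by 3.21-fold (2.21 to 4.75). Notum was 1.92-fold (1.09 to 3.504) higher, Tcf7 1.55-fold (1.30 to 1.86) higher and Rnf43 1.81-fold (1.15 to 2.89) lower without being counted. Axin2 stood at 7.28, 5.21 and 5.90 FPKM on the 3 days, so that the day 15 and day 21 levels did not differ beyond counting error (1.13-fold, 0.806 to 1.60).

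Of the other Wnt targets, 4 of 23 measured were higher and 4 lower from day 6 to day 15, and 3 and 3 of 23 from day 15 to day 21. Fgf4, an ESC growth factor gene, stood at 1.52 FPKM on day 6 and 40.0 on day 15. Nodal, a signalling ligand of pluripotent cells and one of the primitive streak genes, stood at 0.651 and 11.3. Cdx1 went from 2.28 to 7.07 and to 18.2 FPKM on day 21, and Cdx2 from 22.3 to 6.53 and 1.79. The pluripotent cell markers summed to 275, 1006 and 1755 FPKM on the 3 days, with all 8 at 1 FPKM or more each time, and the trophoblast markers to 550, 253 and 93.9, all 7 each time. The 2-cell-like markers summed to 99.9, 3.16 and 1.45 and the extraembryonic endoderm markers to 925, 829 and 355. Their part in the differences of the members was not tested.

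In the CiPSC line against stage III day 21, 1 of 7 measured members was higher and 2 were lower, where 4.88% and 15.4% of all genes were called. Lef1 was 4.66-fold (2.74 to 8.46) higher. Rnf43 was 5.80-fold (2.63 to 14.5) lower and Dkk1 18.3-fold lower with its 0 reads in CiPSCs set at 3. Nkd1 (3.38-fold, 1.79 to 6.91) and Tcf7 (1.42-fold, 1.25 to 1.62) were higher without being counted, and Axin2 did not differ beyond counting error (1.05-fold, 0.778 to 1.41). In the line 8 of 9 fibroblast markers (summed 5.09 FPKM against 398), 7 of 7 measured extraembryonic endoderm markers (9.12 against 355) and 5 of 7 trophoblast markers (79.9 against 93.9) were lower, and 5 of 5 measured 2-cell-like markers (39.1 against 1.45) were higher. Their part was not tested. With size factors the all-gene median moved by 0.18 and the split of called genes went from 658 higher and 2075 lower to 1009 and 1691, with the member counts as before. Tcf7l2 was 6.78-fold (5.31 to 8.76) lower in the line, and Dkk3, a divergent relative of Dkk1, 14.3-fold (10.8 to 19.3) lower. Of 22 measured Wnt targets other than the members, 0 were higher and 7 lower, with a median log2 fold of -0.62. Of 6 measured ligands, 0 were higher and 3 lower.

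Against ESCs, kept in the same medium, the CiPSC line had 0 of 6 measured members higher and 1 lower, where 1.79% and 4.77% of all genes were called. Notum was that member, at 4.36 against 10.9 FPKM (2.49-fold, 1.89 to 3.30). Axin2 was 1.56-fold (1.21 to 2.02) lower without being counted. Nkd1 was 1.83-fold (1.13 to 3.06) higher, and T was 3.73-fold (1.53 to 10.4) lower on 7 and 21 reads. All 9 2-cell-like markers were lower in the CiPSC line (summed 39.1 FPKM against 265), and their part was not tested. Lef1 (1.03-fold, 0.767 to 1.38) and Tcf7 (1.03-fold, 0.923 to 1.16) did not differ beyond counting error. The all-gene median moved by 0.13 with size factors, and the split went from 230 higher and 611 lower to 351 and 424. The strains of these lines differ, and each is 1 line, so line, strain and origin cannot be told apart.

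Across the 14 libraries, which share culture stages and in part background, the members did not follow a single order. Correlations of log2(FPKM + 1) over the 45 pairs are given as a description. Notum and Tcf7 had the highest Pearson r (0.81, Spearman rho 0.91), and r was 0.78 without N2B27-SII and ESCs, the 2 libraries farthest from the median of Notum. Dkk1 and Rnf43 had r of 0.80 (rho 0.72, and r 0.67 without CiPSCs and ESCs), and Sp5 and Nkd1 0.79 (rho 0.63, and r 0.55 without pZscan4c-Em- and N2B27-SII). Notum and Lef1 also had 0.79 (rho 0.71, and r 0.68 without N2B27-SII and ESCs). Nkd1 and Lgr5 had a rho of 0.89 but r of 0.52. Axin2 and Sp5 had r of 0.76 (rho 0.85) and 0.94 without XEN-like cells and N2B27-SII. The lowest value, -0.61 for Tcf7 and Lgr5 (rho -0.40), became 0.14 without MEFs and stage III day 6.

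The genes with the pattern most like that of Axin2, among 10218 genes at 10 FPKM or more in any library, were Gatm (r 0.95), Srrd (0.94), Grrp1 (0.92), Smim11 (0.90) and Idnk (0.89). Gatm encodes an enzyme of creatine synthesis. Their Spearman rho was 0.86 to 0.89, and r stayed at 0.89 to 0.94 without XEN-like cells and N2B27-SII. Gatm, Srrd and Grrp1 were also among the 5 highest by Spearman rho. For T the 5 were Foxn4 (0.88), Zdbf2 (0.87), Zfp281 (0.87), Bzw1 (0.86) and Etnk1 (0.84), but these rested on the pluripotent lines: without ESCs and CiPSCs, r for Foxn4 was -0.02, and 0 of the 5 were among the 5 highest by Spearman rho.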

How the data were processed

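Gene levels were the FPKM values that the authors deposited for 14 bulk libraries made from total RNA with the NEBNext Ultra RNA kit, per the labels' protocols. The build was mm10, per the submitters' processing notes; no source used here names the aligner or counter of the bulk libraries. The other libraries, 12 single-cell and 4 bisulfite, were not used here. Whole reads and library totals were recovered from the FPKM steps (23178 entries, all values returned within 1e-06). The recovery was tested on simulated data drawn from those same totals and gene lengths, so it does not test the totals independently. There 99.4% of 22369 genes came back exactly for the pair N2B27-SII and XEN-like cells. Gene lengths behind FPKM are those the authors used. Of entries that share a name, the one with the highest mean was used. Calls and medians used log2(FPKM + 1). Printed folds are ratios of FPKM with exact 95% binomial intervals. For a gene at 0 reads the fold was taken with 3 reads in place of 0 and has no interval. Sequences and start sites came from RefSeq (GRCm38.p6), where all 10 members matched by symbol. The pathway and marker lists, 18 with the members, leave the members out. Pathway genes named are at most the 4 largest folds of a list in a comparison and its most abundant gene; genes like Axin2 or T are the 5 with the highest Pearson r. The members and lists were chosen with earlier results of these data known. Python 3.11.15, numpy 2.4.6, pandas 2.3.3 and scipy 1.17.1 were used. Alternatives were a pseudocount of 0.1, no filter or 5 FPKM, median-of-ratios size factors and, chosen after seeing the data, totals without mitochondrially encoded entries.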

Additional observations from a re-analysis of the deposited data

How the results depend on the processing

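Size factors and totals without mitochondrial reads moved none of the 26 counts of members and 13 medians beyond 1.5 times or the counting interval. A pseudocount of 0.1, which weighs low levels more, moved the medians to 3.26 (XEN-like cells against MEFs), 2.84 (N2B27-SII against FBS/KSR-SII), -2.64 (OG+ fraction), -1.21 (reporter pair) and -2.78 (stage III day 6 against N2B27-SII). It gave 5 lower in the reporter pair, 1 higher for Opt. VPA, 2 higher and 2 lower from day 6 to day 15, 2 higher from day 21 to CiPSCs and 2 lower for CiPSCs against ESCs. A minimum of 5 FPKM moved the medians, in the order of those 5 comparisons, to 2.87, 2.38, -2.53, -1.19 and -2.51, and left 0 higher and 0 lower for CiPSCs against day 21, where the counted members are all under it. With no filter the medians were 1.31 for XEN-like cells against MEFs and -0.42 for FBS/KSR-SII against XEN-like cells. Of single members' folds, 40 of 97 moved with a pseudocount of 0.1, 2 of 96 with size factors and 1 of 97 without mitochondrial reads. No paired analysis was possible because each group had 1 library and no result comes from a test. Depth limits T, Lgr5 outside MEFs and Sp5 in the low libraries, where 3 reads are worth 0.0815 FPKM (Lgr5, FBS/KSR-SII) to 0.391 FPKM (T, Control), and counting intervals leave out variation between cultures.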
